A study of Mus musculus with 2 samples.

Results

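KLF4 peaks in later introns are the regions that the authors' annotation places in intron 2 or beyond of a transcript. They were taken from a single annotated peak list by the annotation text, as intronic peaks not in intron 1, and no measured signal entered that choice. The rule found 963 of 4216 peaks (22.8%, 95% exact binomial interval 21.6% to 24.1%), which were 71.4% of the 1349 intronic peaks. They lay in 804 host genes, a host being the gene whose intron held the peak according to the annotation text.

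The list came from 1 KLF4 chromatin immunoprecipitation (ChIP-seq) library, read against 1 input library of the same kind of chromatin without antibody. Both were made from portal fibroblasts, which make matrix around the bile ducts and vessels of the portal tracts. The cells were sorted as Clec3b-tdT+ from livers of Clec3bCreERT2;R26tdT mice, in which an inducible Cre under Clec3b switches on a red reporter, and both libraries carried Klf4 overexpressed from a lentivirus. No library without extra Klf4 was analysed here, the labels state no age, sex or number of animals, and peaks do not measure expression, so the cell type was not checked against markers. With 1 library of each kind no value has a replicate error, no difference was tested, and all intervals cover counting error only. Positions are on GRCm39.

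KLF4 is a zinc-finger transcription factor that binds GC-rich and CACCC-type sequences and can activate or repress its targets. Introns are removed from the transcript, but their DNA can hold enhancers, alternative promoters and small genes of their own. A peak in a late intron can therefore be far from the first promoter of its host and near the start of another transcript, and the annotation alone does not say which gene a site regulates.

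The sequence of the intronic peaks themselves is not shown, since no genome of this build was used here. Promoters could be shown for hosts that also had a promoter peak reaching over a transcription start site (TSS) outside high input background. There were 3 such hosts, Ogfod1, Sucla2 and Mad1l1, and the 2 with a single promoter entry are printed to show the sequence context at the start of a gene that also carried peaks in later introns. The sequences are RefSeq entries on GRCm38.p6, 250 bases before to 50 after the start. Capitals mark matches on either strand to CACCC, GGGCGGGG, GGGTGGGG or CCACACCC.
Ogfod1 promoter (+ strand): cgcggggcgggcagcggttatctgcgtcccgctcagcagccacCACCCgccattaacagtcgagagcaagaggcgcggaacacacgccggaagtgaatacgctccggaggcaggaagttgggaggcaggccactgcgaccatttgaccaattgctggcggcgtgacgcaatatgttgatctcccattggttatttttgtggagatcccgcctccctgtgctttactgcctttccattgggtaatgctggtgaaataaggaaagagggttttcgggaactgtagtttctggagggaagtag
Sucla2 promoter (+ strand): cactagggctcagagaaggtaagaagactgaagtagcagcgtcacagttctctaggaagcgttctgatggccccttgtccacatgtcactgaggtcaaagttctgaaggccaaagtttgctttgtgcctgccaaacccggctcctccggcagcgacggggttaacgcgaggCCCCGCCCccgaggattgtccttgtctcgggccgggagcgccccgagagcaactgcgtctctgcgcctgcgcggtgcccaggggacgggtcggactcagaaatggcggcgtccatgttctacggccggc

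The Ogfod1 promoter held 1 match to CACCC and none to the longer words, and CACCC occurred in 57.5% of all 32851 promoter entries. The Sucla2 promoter held 1 match to GGGCGGGG, found in 17.6% of entries. The other words were present in 9.99% (GGGTGGGG) and 3.56% (CCACACCC) of entries, and CACCC is contained in CCACACCC and, as its reverse complement, in GGGTGGGG. These matches are descriptions of the letters. Because the peaks and the promoters are on different builds, the peak was not placed within the printed window.

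Intron numbers in the annotation followed the direction of transcription. In 87 transcripts with intronic peaks of different rank and a known strand, all 169 pairs of peaks lay in the order that transcription gives, 92 of 92 on the plus strand and 77 of 77 on the minus strand. A higher rank is therefore a position farther from the 5′ end of the named transcript. The rank belongs to the transcript that the annotation chose, and another isoform of the same gene can number the same intron differently.

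Later-intron peaks were most numerous in the introns just after the first. Intron 2 held 254 peaks (26.4%, exact interval 23.6% to 29.3%), intron 3 held 168 (17.4%) and intron 4 held 102 (10.6%), and introns 9 and 10 held 23 and 28. The median rank was 4 (quartiles 2 and 8), in transcripts with a median of 11 introns (quartiles 6 and 21). Ranks above 10 held 189 peaks (19.6%) and ranks above 20 held 59 (6.13%). The last intron of the transcript held 143 peaks (14.8%), of which 36 were in transcripts with 2 introns. Neither intron lengths nor the number of introns that exist at each rank was used, so these counts are not densities.

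**Figure D1:**
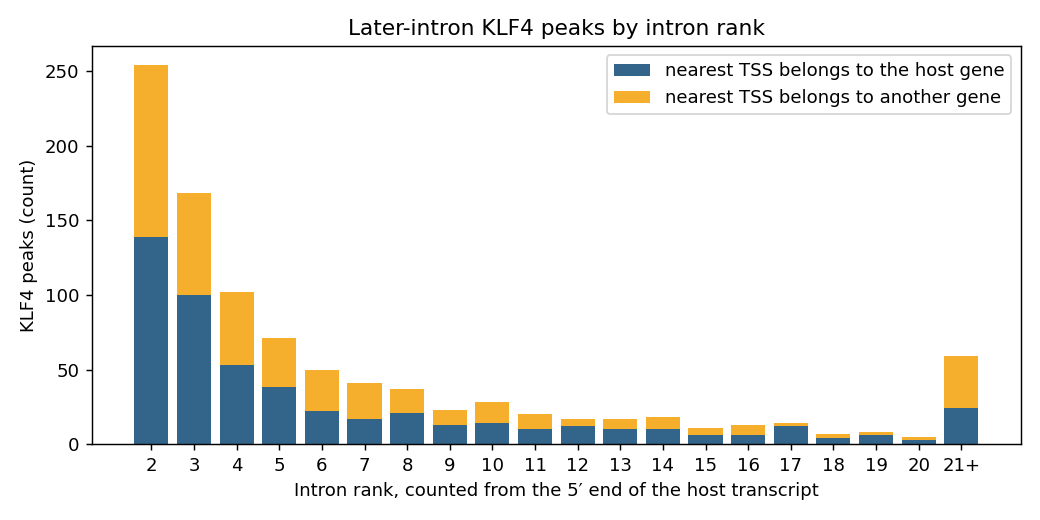
Number of later-intron KLF4 peaks (y axis) at each intron rank (x axis, counted from the 5′ end of the host transcript, ranks of 21 and above pooled). Bars are stacked by whether the nearest TSS belonged to the host gene or to another gene, and the total is 254 at rank 2 and 168 at rank 3.

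The named hosts of highest rank were genes for very long proteins. Dnah8, an axonemal dynein heavy chain, had a peak in intron 87 of 92 on chromosome 17 (31054932 to 31055170), with a fold enrichment of 4.43 from 5 ChIP fragments. Fold enrichment, taken from the authors' table, divides the ChIP height by the local background after adding 1 to both. The fragments are that ChIP height, derived here from the fold and p. Csmd3, a large membrane protein with CUB and Sushi domains, had one in intron 66 of 68 (fold 4.32, 8 fragments). Both were near the lower end of the list in strength. The next 3 by rank, in introns 65 of 69, 60 of 61 and 55 of 145, were in hosts that the files do not pair with a name.

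Distance to the nearest TSS of any gene had a median of 17.2 kb (95% interval of the median 15.8 to 18.96 kb, quartiles 8.21 and 41.0 kb). It was 12.5 kb (10.4 to 14.5 kb) for the 386 first-intron peaks and 25.4 kb (23.6 to 27.4 kb) for the 1815 distal intergenic peaks. The 3 intervals did not overlap, and the class of a peak is itself set in part by position relative to starts. Within 10 kb of a TSS lay 312 later-intron peaks (32.4%, 29.4% to 35.5%), against 43.0% of first-intron and 21.4% of intergenic peaks. Beyond 50 kb lay 199 (20.7%, 18.1% to 23.4%), against 10.6% of first-intron and 29.4% of intergenic peaks. No later-intron peak was closer than 3 kb, because the authors' annotation gives promoters precedence there. At the border of the rule, peaks in intron 2 had a median distance of 14.7 kb and those in intron 1 the 12.5 kb given above.

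**Figure D2:**
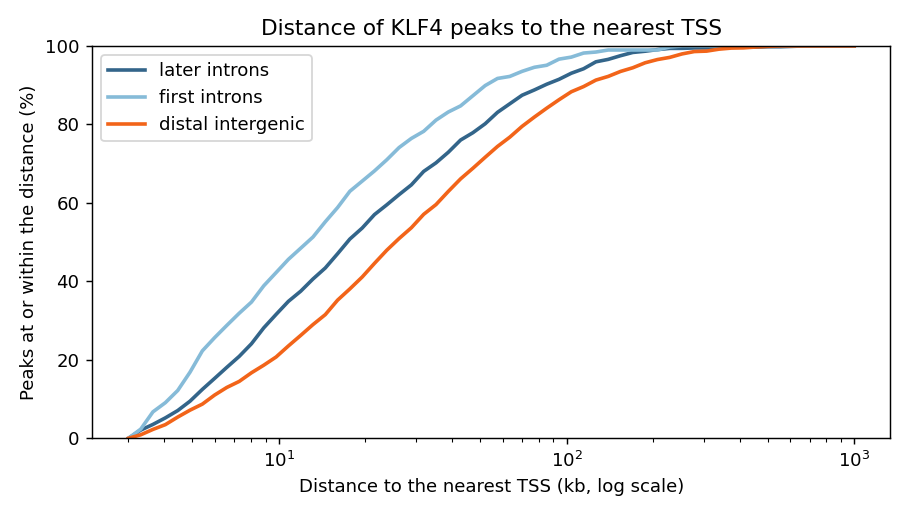
Share of peaks (y axis, percent) at or within a distance of the nearest TSS (x axis, kb, log scale) for later introns, first introns and distal intergenic regions. The later-intron curve runs between the other curves, with medians of 17.2, 12.5 and 25.4 kb in that order of classes.

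The nearest TSS belonged to the host gene at 520 peaks (54.0%, 50.8% to 57.2%) and to another gene at 443 (46.0%). It was the start of the very transcript whose intron held the peak at only 71 peaks (7.37%). Among the 520, the peak lay upstream of that nearest start at 168 (32.3%, 28.3% to 36.5%), that is, the nearest start of the host lay farther along the gene, and downstream at 352. Usp2, a ubiquitin-specific protease, had a peak 3053 bp upstream of such an internal start (fold 4.59). For 118 peaks the table also listed the start of the host transcript, and the median distance to it was 26.6 kb, against 15.8 kb to the nearest TSS for the same peaks. The nearest TSS can be no farther than the host start, so this direction was fixed in advance. A host start was listed only where that transcript was the nearest one of some peak, so the 118 are a selected set.

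Where another gene was nearest, it was usually not protein-coding. Processed pseudogenes were nearest at 108 of the 443 peaks (24.4%), long non-coding RNAs at 104 (23.5%), genes of the class TEC (short or unspliced loci awaiting experimental evidence) at 85 (19.2%, 15.6% to 23.2%) and protein-coding genes at 62 (14.0%). TEC genes were nearest at 4.79% of all 1815 distal intergenic peaks (3.86% to 5.88%), protein-coding genes at 23.5% and processed pseudogenes at 30.9%. The 443 leave out peaks whose own host was nearest, so the shares of these 2 sets are not like for like. Over all 963 later-intron peaks, the nearest gene was protein-coding at 54.8% and a processed pseudogene at 11.2%. Small nuclear RNA genes were nearest at 26, microRNA genes at 21 and small nucleolar RNA genes at 16 of the 443 later-intron peaks. In these cases the gene assigned to the peak differs from the gene whose intron holds it. The strongest later-intron peak shows this. It covered chromosome 2 from 5384076 to 5384228, in intron 3 of 10 of a host without a name in the files (ENSMUSG00000039145), while the table assigned it to the pseudogene Gm13197 at 95.6 kb.

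Among the 5 peaks farthest from any TSS, 3 were in the named hosts Dcc and Gpc6. Dcc, the netrin receptor that guides axons, had peaks 649.5 kb and 608.2 kb from the nearest start, in introns 9 and 5 of 28 (folds 5.24 and 4.80, 6 fragments each). Gpc6, a cell-surface heparan sulphate proteoglycan, had one 466.0 kb away in intron 2 of 3 (fold 4.54, 6 fragments). The other 2 of the farthest 5, at 353.7 and 342.0 kb, were in hosts without a name in the files.

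Most later-intron peaks were shallow. Of the 963, 353 rested on 5 ChIP fragments and 363 on 6, together 74.4% (71.5% to 77.1%), against 75.3% of all peaks. The median fold was 4.59 (quartiles 4.54 and 4.95), the same 4.59 as in first introns, intergenic regions and all peaks, because 195 later-intron peaks shared that exact fold and 130 shared 4.54. Mean folds were 4.73 in later introns, 4.78 in first introns and 4.72 in intergenic regions. Median width was 191 bp (interval 181 to 201 bp), against 200.5 bp in first introns and 201 bp over all peaks.

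A q-value under 0.01 was reached by 151 later-intron peaks (15.7%, 13.4% to 18.1%), by 60 first-intron peaks (15.5%) and by 307 intergenic peaks (16.9%), against 17.4% of all peaks. The share in later introns was near that of the whole list. A q under 1e-05 was reached by 11 (1.14%, 0.572% to 2.03%), against 2.73% of all peaks and 3.75% of intergenic peaks (2.92% to 4.73%). At least 10 fragments were found at 53 (5.50%), against 6.52% of all peaks, and 14 of these 53 were outside high input background. High input background means over 10 times the genome-wide level of 0.307 fragments, a limit set after the data had been seen.

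Strength was also counted by position along the transcript. The share with a q under 0.01 was 14.2% at rank 2, 16.1% at rank 3, 13.9% at ranks 4 to 6, 14.7% at ranks 7 to 10 and 20.1% above 10. By distance, it was 19.9% within 10 kb of a TSS, 13.9% at 10 to 50 kb and 13.1% beyond 50 kb. These shares include high-background peaks, which were 19 of 312 within 10 kb, 9 of 452 at 10 to 50 kb and 11 of 199 beyond. By rank, in the order above, such peaks were 12 of 254, 6 of 168, 8 of 223, 1 of 129 and 12 of 189. The share with a q under 0.01 was 16.7% where the host gene was nearest and 14.4% where another gene was. High-background peaks were 26 of 520 and 13 of 443 there. No order was read from these values, since none was tested.

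Outside high input background, 23 later-intron peaks had a fold above 6. First introns, with 386 peaks in all against 963 in later introns, held 13 such peaks. A high fold is therefore not read as a feature of later introns. The strongest later-intron peak, in the unnamed host on chromosome 2, had a fold of 12.2 from 15 fragments (q = 2.51e-16). Gm15232, a long non-coding RNA on chromosome X, followed with 9.20 from 12 fragments over 1002 bp (165874432 to 165875433) in its last intron, 3 of 3. Both stood apart from the rest, since the next highest fold was 7.13, at a pair of peaks. One of these was in Cplane1, a ciliogenesis gene, in intron 6 of 52 on chromosome 15 (8207170 to 8207553, 10 fragments, q = 6.05e-06). The other was in intron 5 of 8 of an unnamed host on chromosome 8 (ENSMUSG00000004637, 115400216 to 115400573, 10 fragments).

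The next named hosts by strength included regulators of transcription and signalling. Mapk10, the neuronal stress kinase JNK3, had a fold of 6.88 (8 fragments, chromosome 5, 103288076 to 103288309, intron 2 of 13). Aldh1a1, which oxidises retinaldehyde to retinoic acid, had 6.52 from 10 fragments in intron 2 of 3, and a further peak of 4.68 in the same intron. Sox5, an SRY-box transcription factor, had 6.49 from 9 fragments in intron 8 of 14, and the repressor of epithelial genes Zeb2 had 6.25 from 8 fragments in intron 3 of 10 (chromosome 2, 44954696 to 44954830). These folds are each values of 1 library. Chchd6, a mitochondrial cristae protein, had 6.24 and Zfp827, a zinc-finger gene, had 6.13. The nearest TSS belonged to the host for Cplane1, Mapk10, Sox5, Zeb2 and Zfp827, but to C730002L08Rik for the Aldh1a1 peak and to Plxna1, at 50.9 kb, for the Chchd6 peak.

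Of the 804 hosts, 689 had 1 later-intron peak and 115 had several: 98 had 2, 6 had 3, 6 had 4 and 5 had more. The 115 carried 274 peaks, and in 94 of them the peaks lay in introns of different rank. The gap between neighbouring peaks of a host had a median of 80.1 kb over 159 pairs. It was 7.38 kb in the 28 pairs with both peaks in high input background and 101.6 kb in the other 131 pairs. Of 24 pairs within 10 kb, 17 were pairs in high background. With a q under 0.01, 7 hosts had several peaks. Gene length was not used, and no such count for another class of peaks is given here. Several peaks in a host are therefore not read as a trait of that host.

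The 3 hosts with the most peaks lay in high input background, except for 1 Esrrg peak just under the limit. Esrrg, an orphan nuclear receptor, had 9 peaks over 418.9 kb of chromosome 1, with folds from 3.02 to 4.74, and its background was 9.61 to 19.4 times the genome-wide one. The annotation used a transcript with 3 introns for 6 of them and one with 7 introns for the other 3. Cpm, a membrane carboxypeptidase, had 8 peaks over 34.9 kb of chromosome 10 with folds of 2.22 to 3.25 at 44.0 to 67.0 times background. Nup107, a nuclear pore scaffold protein, had 8 over 20.8 kb with folds of 2.08 to 3.01 at 45.4 to 72.3 times. The part of input background in their number of peaks was not tested.

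The 13 hosts with 3 to 5 peaks all had background at or below 3.53 times the genome-wide one at every later-intron peak. Lsamp, a neuronal adhesion protein of the immunoglobulin family, had 5 peaks spread over 1035 kb of chromosome 16, in introns 2, 3 and 5 of 8, with folds of 4.48, 4.46, 4.54, 4.54 and 4.54 along the gene from 5 or 6 fragments each. Cntnap2, a neurexin-like adhesion protein, had folds of 4.51, 4.54, 5.48 and 4.67 in introns 4, 9, 12 and 13 of 23. Pde4d, a phosphodiesterase that degrades cAMP, had 4.51, 4.32, 5.19 and 4.54 in introns 2, 2, 3 and 7 of 16. In each of these hosts no peak had more than 8 fragments. Galntl6, a glycosyltransferase-like gene, had 4 peaks in introns 7, 5, 3 and 2 of 12 with folds of 5.12, 4.43, 4.45 and 4.93 in the order of coordinates. Erc2, a presynaptic scaffold, had 4 with folds of 4.32 to 4.81, and Spag16, a component of the ciliary axoneme, had 4 with 4.51 to 4.80, 3 of them in intron 11 of 12. The splicing regulator Rbfox1 also had 4, in introns 3, 4 and 5 of 16, with folds of 4.54 to 4.77. A q under 0.01 was reached by 1 peak of Cntnap2 and by none of Lsamp, Pde4d, Galntl6, Erc2, Spag16 or Rbfox1.

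**Figure D3:**
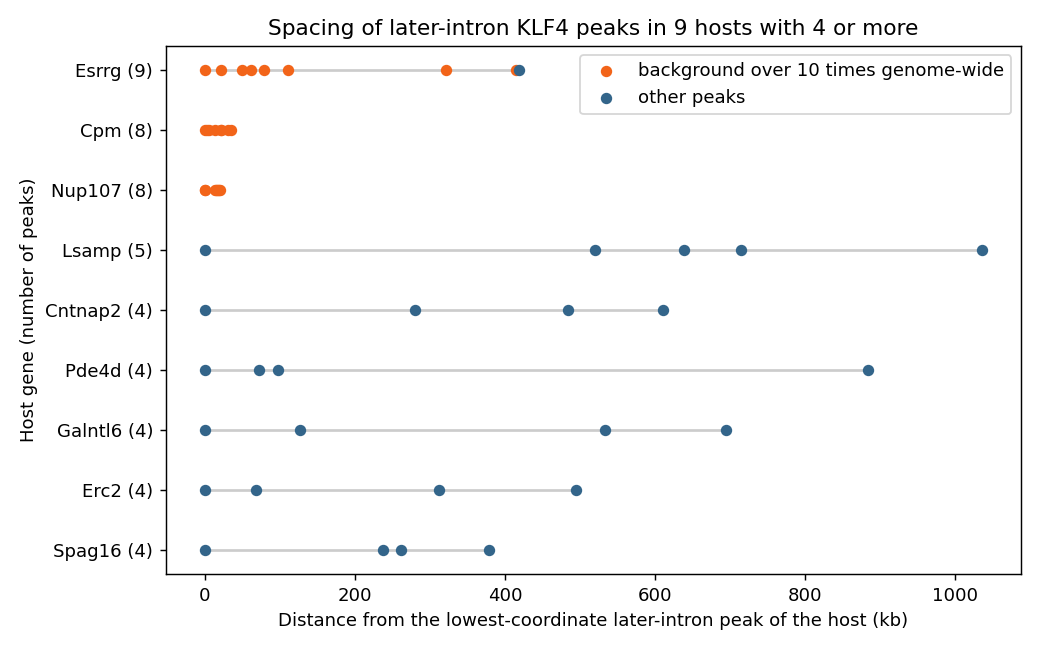
Later-intron KLF4 peaks of 9 hosts that carried 4 or more, each on its own line and labelled with its number of peaks. The x axis is the distance in kb from the host's lowest-coordinate peak, and colour marks input background over 10 times the genome-wide one, which is seen at Esrrg, Cpm and Nup107, while the peaks of Lsamp reach over 1035 kb.

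High input background covered 39 later-intron peaks (4.05%, 2.90% to 5.49%) in 11 hosts, against 4 first-intron peaks (1.04%, 0.283% to 2.63%), 5.45% of intergenic peaks and 4.79% of all peaks. These intervals treat peaks as separate, although many of the 39 were neighbours. With 1 peak per host, the later-intron share was 1.37% (0.685% to 2.43%), so no difference from first introns is read. Besides the 3 hosts above, the 11 included Gm40770, Slc35e3, Mdm2 and Otogl on chromosome 10, Cwc22 on chromosome 2, Cdk5rap2 on chromosome 4 and Chl1 on chromosome 6. The peaks of Gm40770, Cpm, Mdm2, Slc35e3 and Nup107 all lay between positions 117239345 and 117610074 of chromosome 10. High-background peaks were 7 of the 11 later-intron peaks with a q under 1e-05. The lowest q in later introns, 2.24e-117, was at Chl1, a neural adhesion molecule, where 625 fragments over 112 bp (103626115 to 103626226, intron 3 of 26) stood on a background 661.2 times the genome-wide one, for a fold of 3.06. Cdk5rap2, a centrosome protein, had a fold of 5.56 from 125 fragments over 122 bp at 70.5 times. Otogl, a gene for an inner-ear matrix protein, had 4.23 from 56 fragments at 40.6 times. The part of input background in these values was not tested.

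**Figure D4:**
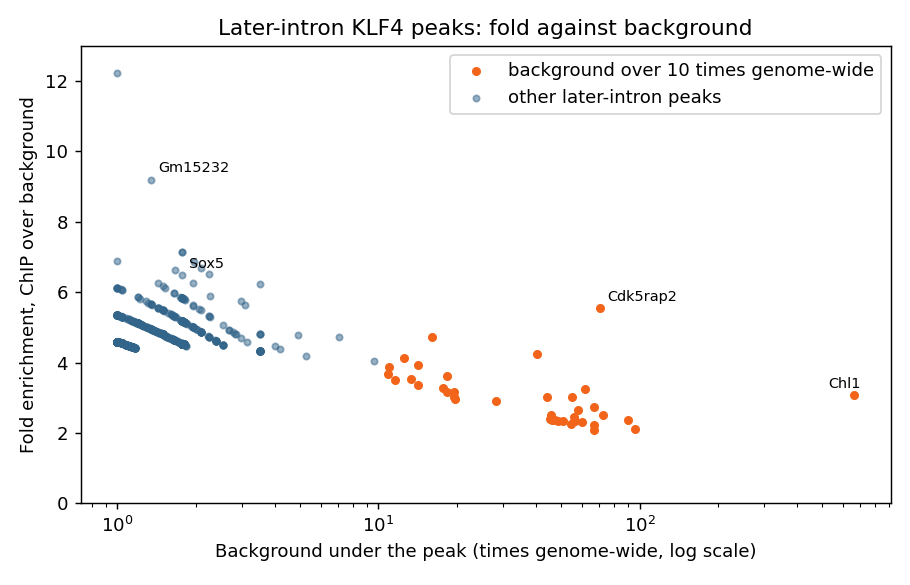
Fold enrichment of each later-intron peak (y axis, linear ratio of ChIP over background) against the background under it (x axis, times the genome-wide level, log scale). The 39 peaks over 10 times background, at right, have folds of at most 5.56, and Gm15232 at upper left has 9.20. The lowest fold of the other peaks is 4.05, and how far peak calling sets this shape was not tested.

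For gene groups, 17 lists with 442 genes were compared by counts. A host can be matched to a list only where the files pair it with a name, which was so for 495 of the 804 hosts, namely those that were also the nearest gene of some peak, so the counts are lower limits, and intervals on them leave out what unnamed hosts could add. Under the same limit, 432 of 21900 protein-coding genes (1.97%) had a later-intron peak. Some member had such a peak in 12 of the 17 lists, 46 genes in all. A list of genes known for great length held 18 of the 46.

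Among 32 myofibroblast and contractile genes, 5 had a later-intron peak (15.6%, 5.28% to 32.8%), against 1.97% of all protein-coding genes. Gene length was not corrected for, and the list was chosen with earlier results of these data known. The share is therefore not read as an enrichment of these genes. Lpp, a LIM protein of focal adhesions, had a fold of 5.84 from 8 fragments in intron 7 of 12. Tpm4, a tropomyosin of actin filaments, had 5.70 from 7 fragments in intron 6 of 8, with the nearest TSS that of Gm26586 at 5.75 kb. Mylk, the kinase that phosphorylates myosin light chain, had 2 peaks, of 5.35 in intron 25 and 4.58 in intron 9 of 31. All of these lay in background at most 3.13 times the genome-wide one. Fap, the fibroblast activation protease, had 4.80 in intron 11 of 25, and the focal adhesion gene Tns1 had 4.59 in intron 30 of 34. The median over the 6 peaks, 2 of them in Mylk, was 5.08, against 4.59 for all later-intron peaks. With 6 peaks of a list chosen in this way, the 2 medians are not read as a difference in strength.

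Of 43 extracellular matrix genes 1 had a later-intron peak (2.33%, against 1.97% of all protein-coding genes), the microfibril protein Fbn1, with a fold of 5.53 from 8 fragments in intron 34 of 65. Postn, the matricellular protein periostin, was the nearest gene of 1 peak, which was not in a later intron of it. Klf4 and Clec3b were the nearest gene of no peak, so the files could not have named either as a host, and nothing is read from their counts of 0. Of 30 matrix turnover genes 4 had a later-intron peak (13.3%, 3.76% to 30.7%). Gene length was not corrected for, and this list too was chosen with earlier results known, so the share is not read as an enrichment. Loxl1, which cross-links elastin, had 5.19 in intron 2 of 6, the protease Adam12 had 2 peaks of 4.59 each, Adamts12 had 4.47 and Adamts17 had 4.45. All 5 of these peaks rested on 5 to 7 fragments.

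Signalling, adhesion and transcription lists held between 1 and 5 genes with a later-intron peak, against 1.97% of all protein-coding genes. Here too gene length was not corrected for, so no share is read as a result about a pathway. Of 31 TGF-beta and BMP genes 1 had a later-intron peak (3.23%), the inhibitory Smad6, with 5.35 from 6 fragments in intron 3 of 3. Of 30 Wnt, Hedgehog and Notch genes it was Ryk, a Wnt receptor (4.54), and of 29 growth factor receptors and adaptors it was Ephb2, an ephrin receptor (4.59). Of 29 integrin, cadherin and adhesion genes 4 had one (13.8%): Cdh18 (fold 4.82), Ctnna3 (highest fold 4.59), Ptprt (highest fold 4.54) and Cdh11 (fold 4.49), the mesenchymal cadherin. Among 35 chromatin and transcription regulators 5 had one (14.3%), of which Ebf1, a transcription factor of B cells and adipocytes, had 4.87 and Meis2, a homeobox gene, 4.54. The others were Rora (4.54), Foxp2 (4.32) and Esrrg, which lay in high input background.

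Of 40 long neuronal and synaptic genes, 18 had a later-intron peak (45.0%, 29.3% to 61.5%), with 41 peaks and a median fold of 4.59, equal to that of all later-intron peaks. The list was made of genes known for great length, so it holds more intronic sequence than the others. Gene length was not used as a correction for this or any other list. Besides Sox5, Cntnap2, Galntl6, Lsamp and Rbfox1, already described, Dlgap1, a postsynaptic scaffold, had 3 peaks of up to 5.48 and Dmd, the cytoskeletal linker dystrophin, had 2 of up to 5.35. Grik2, a kainate receptor, had 1 of 5.30. These peaks had background between 1.00 and 3.53 times the genome-wide one.

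The counts were 0 of 24 KLF and SP family genes, 0 of 23 portal fibroblast markers, 0 of 20 hepatic stellate cell markers, 0 of 14 hepatocyte markers and 0 of 14 endothelial markers. Against 1.97% of all protein-coding genes, a count of 0 or 1 in lists this short is no result about them, and hosts without a name could add to each count. Epcam, an epithelial adhesion molecule, was 1 of 14 cholangiocyte markers, with a fold of 6.06 from 7 fragments in intron 7 of 9. Adgre1, the macrophage marker F4/80, was 1 of 14 macrophage and leukocyte markers (fold 4.54, 5 fragments). At this depth a count of 0 does not show that binding was absent.

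Of the 804 hosts, 53 also had a peak in a first intron and 36 also had one within 3 kb of a TSS of the same gene. Of these 36, 29 had a promoter peak outside high input background. The same shares over all genes were not computed, and gene length was not used. These overlaps are therefore not read as a trait of the hosts. Dst, a cytoskeletal linker of the plakin family, had a fold of 5.98 both at its promoter peak, at -596 bp from a start, and in intron 5 of 102. Peli2, a ubiquitin ligase of innate immune signalling, had 5.98 in intron 3 of 5 and 5.12 at its promoter peak. Tpm4 had 5.70 in intron 6 and 4.32 at its promoter peak. For Ogfod1, a prolyl hydroxylase of the ribosome, the promoter peak that reached over the start had a fold of 5.48, and the peak in intron 2 of 12 had 4.62, at 8443 bp from the start of its transcript. For Sucla2, a subunit of succinyl-CoA synthetase, the promoter peak had 5.00, and peaks in intron 6 of 10 and intron 3 of 3 of another transcript had 4.92 and 4.57.

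By chromosome, the share of peaks in later introns was 30.9% on chromosome 1 (100 of 324), 29.1% on each of chromosomes 13 and 16, and 15.8% on chromosome 3 (36 of 228). On chromosome 1, 86 of the 100 lay outside high input background, and on chromosome 10 48 of 70 did. Chromosome X held 21 later-intron peaks and chromosome Y held 1. The gene content of the chromosomes was not used.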

How the data were processed

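Per the submitters' processing notes, the processing used MACS2 2.2.7.1, Bowtie2 2.4.2 and the peak annotator ChIPseeker 1.44.0, besides fastp 0.24.0, with GRCm39 (mm39). Their settings and the read depth of the 2 libraries are unknown here. The authors deposited 1 annotated peak list of KLF4 ChIP against input, with fold as a linear ratio, the −log10 of p and q, and each p-value and q-value directly. Other deposited columns give widths and distances in bp.

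Later-intron peaks were chosen by the annotation text. ChIP fragments and background at each summit were recovered from fold and p as a whole-number height, which matched the −log10 p within 0.001 at 4216 of 4216 peaks, and the method was tested on simulated data. Host symbols come from the peak list. Gene names were counted against a RefSeq table of GRCm38.p6, used for names only. Shares have exact (Clopper-Pearson) 95% intervals and medians order-statistic ones. The 2 libraries were grouped by title.

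Named genes are hosts with 4 or more peaks (at most 10), the 15 strongest and the 5 of lowest q in high background, the 5 of highest rank and the 5 farthest, up to 4 per list, Klf4, Postn and Clec3b, and 3 peaks whose nearest gene differs. Usp2, Rbfox1, promoter-peak hosts and further list members were chosen after their values were seen. Some hosts and 1 list that these rules name are not reported here. Members and lists were chosen with earlier results of these data known. Calculations used scipy 1.17.1 and pandas 2.3.3 under Python 3.11.15.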

Additional observations from a re-analysis of the deposited data

How the results depend on the processing

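Of 63 values recomputed under other settings, 32 stayed within the interval of the reported value (counts within 1.5 times) and 31 moved. The stricter peak limits change which peaks enter, and the cause of the moves was otherwise not tested. With a q under 0.01 (151 later-intron peaks), their share of all peaks was 20.5%, median rank 5, 7 hosts had several peaks, the host was nearest at 57.6%, median distance was 13.8 kb, median fold 5.35 and high background 11.3%. With a q under 1e-05 (11 peaks) these were 9.57%, 0 hosts, 63.6% host nearest, 25.3 kb, fold 4.74 and 63.6% high background. With at least 6 fragments, 59 hosts had several peaks, median fold was 4.80, 24.8% had a q under 0.01 and 6.39% high background. Above the median fold, 23 hosts had several, median fold was 5.12, 36.8% had a q under 0.01 and 0.545% high background. With 1 peak per host, the share of all peaks was 19.8% and high background 1.37%. With protein-coding hosts only (555 peaks), the share was 14.6%, 72 hosts had several, 84.0% had the host nearest, distance was 15.8 kb, 18.2% had a q under 0.01 and 6.67% high background; a host has a biotype in the files only if it is the nearest gene of some peak, which raises the share with the host nearest. Requiring the same transcript gave 7.37%, and the host transcript start, listed for 118 peaks, gave 26.6 kb. Without high input background 109 hosts had several peaks, and with gaps of at most 1 kb joined 111 did. Motif shares in peaks and ranks in another annotation were not run, as they need a genome or annotation of this build. Settings that fix their own result (a q limit on the share under that limit, for example) gave no value. No paired analysis was possible because there is 1 library of each kind. Most peaks rest on 5 or 6 fragments, so single weak peaks are the values most limited by depth.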
